A study of Mus musculus with 8 samples.

Results

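The genes described here encode receptors and intracellular proteins of the dopamine and cyclic nucleotide pathway of striatal projection neurons: Drd1, Drd2, Adora2a, Gng7, Rgs9, Pde10a, Pde1b, Ppp1r1b and Arpp21. All probe sets that the platform annotation assigns to exactly one of these symbols were taken, a probe set being a group of short probes whose brightness is summarised as 1 signal. This gave 19 probe sets for 8 of the 9 genes, out of 45037 probe sets other than controls, which name 18193 genes. Adora2a, an adenosine receptor of indirect-pathway neurons, had no probe set assigned to it alone and was not analysed here. A filter on low signals kept 17 of the 19 probe sets for testing and left out 2 of the 3 Rgs9 probe sets, which are given as values.

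Total RNA of mouse telencephalon from Dlx1/2 mutants was hybridised to 8 arrays, 2 in each of 4 groups, labelled BG -/- (basal ganglia, homozygous), BG +/- (basal ganglia, heterozygous), Ctx -/- (cortex, homozygous) and Ctx +/- (cortex, heterozygous). The +/- arrays served as controls, so every control carried 1 mutant copy, and no wild-type array was analysed here. Which alleles were used is not stated in the labels. Dlx1 and Dlx2 encode homeodomain transcription factors of the ventral telencephalon. Age, sex, strain and treatment are not stated in the labels, and they do not say whether a group's 2 arrays represent different animals. The p-values therefore rest on a spread between arrays that may be technical. The arrays carry the replicate numbers 2 and 3 in each group.

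Dopamine acts on striatal neurons through receptors coupled to G proteins that raise or lower cyclic AMP. Drd1 is the receptor of the direct-pathway neurons and stimulates adenylyl cyclase, whereas Drd2 is the receptor of the indirect-pathway neurons and inhibits it. Cyclic AMP and cyclic GMP are broken down by phosphodiesterases such as Pde10a and Pde1b, and protein kinase A passes the signal on to phosphoproteins that include Ppp1r1b and Arpp21.

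Signals were compared as log2(signal + 16), an offset that understates the changes of low signals, and a log2 difference below is the difference of 2 group means on that scale. All arrays entered 1 limma fit over 31526 probe sets, with Benjamini-Hochberg adjustment over all of them and a threshold of 0.05. Because the RNA came from whole tissue, fewer cells of a type and less RNA per cell cannot be told apart. Signals of different probe sets are not compared with each other as levels, since probes differ in how brightly they respond.

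Dlx1 was low on every homozygous array, with signals of 3.67 and 15.5 in BG -/- against 1232 and 1237 in BG +/-, and of 2.42 and 1.74 in Ctx -/- against 138 and 137 in Ctx +/-. Dlx2 behaved likewise, with 8.56 and 8.68 in BG -/- against 358 and 287 in BG +/-, and 12.0 and 6.69 in Ctx -/- against 55.3 and 55.3 in Ctx +/-. The submitters' source field names blood and adrenal medulla while their description names the brain region, so marker genes were read. In heterozygotes, 13 of 14 striatal projection neuron markers tested were higher in BG and 9 of 9 cortical glutamatergic markers were lower, where 14.0% of all genes were higher and 10.7% lower. Arrays of 1 group correlated at 0.973 to 0.982 over log2 signals, and arrays of different groups at 0.93 to 0.977. Xist was higher and 3 of 3 tested chromosome Y genes were lower in the -/- arrays than in the +/- arrays of both regions. Xist gave 2340 and 2519 in BG -/- against 34.2 and 42.4 in BG +/-. Sex-linked signals thus followed genotype on these arrays, and genotype and sex cannot be told apart. Within heterozygotes, 3 of the 4 sex-linked genes tested were also lower in BG than in Ctx, where 10.7% of all genes were. Between homozygous regions none of the 4 passed. The member genes lie on chromosomes 9, 10, 11, 13, 15 and 17.

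In basal ganglia, 5 of the 17 member probe sets tested passed in -/- against +/-, belonging to 2 genes, Arpp21 and Drd1. Over all probe sets 9.74% passed. Of the members, 2 probe sets were higher in BG -/- (7.50% of all probe sets were), both of Arpp21, and 3 were lower (2.23% of all), both of Drd1 and 1 further probe set of Arpp21. The median log2 difference of the members was -0.04, beside 0.01 over all probe sets. The remaining 12 did not pass. An unadjusted p under 0.05 (limma) was found for 8 of the 17, beside 8905 of all 31526 probe sets.

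The promoters of these 2 genes are shown because they are the genes that moved and because DLX proteins bind DNA at sites with a TAATT core. The windows are RefSeq sequences of GRCm38.p6 from 250 bases before to 50 bases after an annotated start, 5′ to 3′ on the gene's strand, in lower case with TAATT or its reverse complement AATTA in capitals. Of 9 Arpp21 windows, several of which overlap, 5 held the motif, and 2 that do are shown. Some of these 5, among them the second one shown, overlap one another and hold the same matches. The 5 are therefore not separate places, and the count includes the same bases more than once. Neither of the 2 Drd1 windows held the motif.
Arpp21, chr9:112233673-112233972, minus strand: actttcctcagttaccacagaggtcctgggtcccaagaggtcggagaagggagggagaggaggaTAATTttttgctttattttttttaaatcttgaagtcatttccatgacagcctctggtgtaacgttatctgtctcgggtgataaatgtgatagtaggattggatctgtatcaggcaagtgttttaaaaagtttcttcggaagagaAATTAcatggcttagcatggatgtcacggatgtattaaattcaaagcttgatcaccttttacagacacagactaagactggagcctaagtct
Arpp21, chr9:112187717-112188016, minus strand: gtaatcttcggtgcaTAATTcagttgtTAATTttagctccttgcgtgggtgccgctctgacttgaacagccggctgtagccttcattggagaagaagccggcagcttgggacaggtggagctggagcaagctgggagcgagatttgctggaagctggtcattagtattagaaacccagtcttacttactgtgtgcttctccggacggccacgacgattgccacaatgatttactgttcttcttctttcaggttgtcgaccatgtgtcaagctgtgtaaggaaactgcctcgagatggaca
Drd1, chr13:54055609-54055908, minus strand: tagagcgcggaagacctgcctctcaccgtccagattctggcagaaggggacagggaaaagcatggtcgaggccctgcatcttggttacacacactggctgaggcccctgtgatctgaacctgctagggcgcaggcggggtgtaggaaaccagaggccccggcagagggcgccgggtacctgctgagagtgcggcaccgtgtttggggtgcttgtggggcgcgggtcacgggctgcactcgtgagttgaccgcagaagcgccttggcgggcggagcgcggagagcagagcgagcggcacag
Drd1, chr13:54054731-54055030, minus strand: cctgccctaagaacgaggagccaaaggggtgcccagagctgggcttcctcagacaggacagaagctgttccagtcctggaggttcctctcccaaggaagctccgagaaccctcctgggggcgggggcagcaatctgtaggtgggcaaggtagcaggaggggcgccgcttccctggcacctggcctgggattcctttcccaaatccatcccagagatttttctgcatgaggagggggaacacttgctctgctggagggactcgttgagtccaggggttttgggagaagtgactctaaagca
The motif was searched on both strands, and TAATT and AATTA can overlap in 1 stretch. It occurs in 27.0% of the 32851 promoter windows of 300 bases in the same table. For the other members, the windows of Drd2 (1), Gng7 (2), Rgs9 (1) and Pde10a (2) held none, and 2 of the 3 Pde1b windows held it. Ppp1r1b and Adora2a had no entry. A match is a description of letters in the window and not evidence of binding.

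Drd1 fell in the homozygous basal ganglia on both of its probe sets. On 1456051_at the signals were 52.3 and 36.2 in BG -/-, against 123 and 126 in BG +/-. Both mutant arrays lay far below both heterozygous arrays, by -1.24 ± 0.18 on the log2 scale (SE), a 2.36-fold reduction (limma, adjusted p = 0.0128). On 1455629_at the signals were 14.9 and 17.5 in BG -/-, against 46.3 and 33.7 in BG +/-. The groups were again separate, and the log2 difference was -0.79 ± 0.18 (adjusted p = 0.0428). The changes of both probe sets differed by 0.45 ± 0.23, which did not pass the test of that difference (adjusted p = 0.437). The fall on 1456051_at missed the threshold when any of the 4 BG arrays was left out (adjusted p up to 0.0803), and the fall on 1455629_at passed under only 3 of 16 other settings.

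Cortical Drd1 did not pass between genotypes, and neither did the difference of its genotype effect between regions. In cortex, 1456051_at gave 118 and 115 in Ctx -/-, against 95.2 and 126 in Ctx +/-, and the groups overlapped. The log2 difference there was 0.08, with a 95% interval of -0.35 to 0.51. On 1455629_at the cortical signals were 41.0 and 47.3 in Ctx -/-, against 22.6 and 34.5 in Ctx +/-, a log2 difference of 0.45 (0.01 to 0.88; adjusted p = 0.503). The BG genotype effect was more negative than the cortical one, by -1.32 ± 0.25 on 1456051_at (adjusted p = 0.0783) and by -1.24 ± 0.26 on 1455629_at (adjusted p = 0.0895). Across the 4 groups, BG -/- was lowest on both probe sets and BG +/- overlapped with Ctx +/-.

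Drd2 signals were highest in basal ganglia, and the genotype difference did not pass. Its single probe set gave 30.5 and 44.5 in BG -/-, against 68.7 and 57.2 in BG +/-. Both mutant arrays were lower, by a log2 difference of -0.57 with an interval of -1.21 to 0.07 (adjusted p = 0.221). In cortex the signals were 15.5 and 10.2 in Ctx -/-, against 23.4 and 7.45 in Ctx +/-, and the groups overlapped. Ordered by level, BG +/- came first and BG -/- next, each with both arrays above all 4 cortical arrays, and the cortical groups did not differ beyond their spread.

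**Figure D1:**
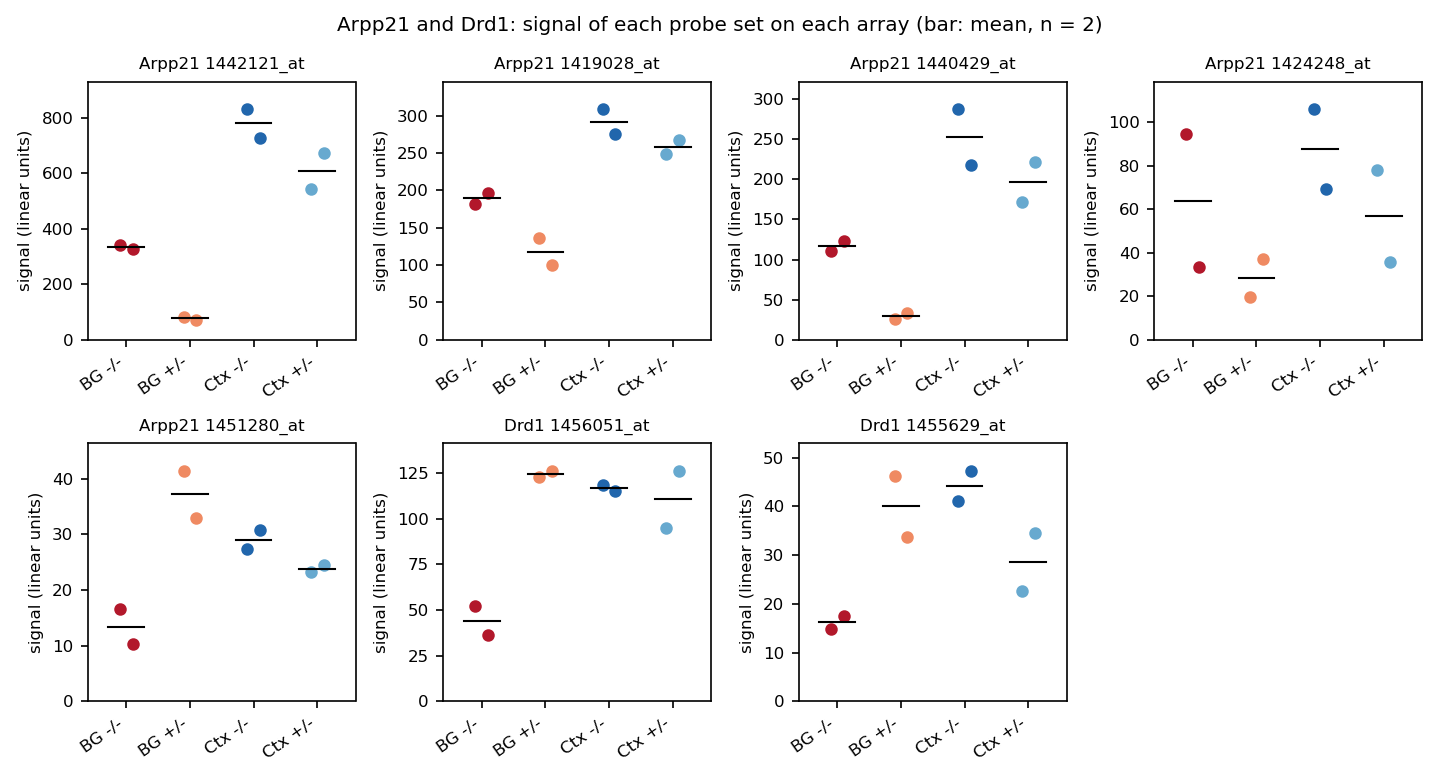
Signal in linear units (vertical axes, each from 0) of the 5 Arpp21 and 2 Drd1 probe sets on each array, with the group on the horizontal axis, 1 point per array and a bar at the mean of 2. Both Drd1 probe sets are lowest in BG -/-, Arpp21 1442121_at and 1440429_at are lowest in BG +/-, and Arpp21 1451280_at is lowest in BG -/-.

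Arpp21, a cyclic AMP-regulated phosphoprotein of striatal neurons that is also expressed in cortex, rose more than any other member in BG -/- on the probe set that represents it, 1442121_at, chosen for its highest mean. The signals were 342 and 328 in BG -/-, against 81.6 and 71.9 in BG +/-. The 4 arrays formed 2 tight pairs, separated by 1.92 ± 0.15 on the log2 scale, a 3.79-fold increase (limma, adjusted p = 0.00315). In cortex the signals were 832 and 729 in Ctx -/-, against 543 and 674 in Ctx +/-, with a log2 difference of 0.36 (-0.01 to 0.72; adjusted p = 0.524). The order of levels was Ctx -/-, Ctx +/-, BG -/- and BG +/-, so that the homozygous basal ganglia lay between the heterozygous basal ganglia and both cortical groups. The BG rise passed under all 17 other settings, with values of 1.5 to 2.11.

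A second Arpp21 probe set, 1440429_at, moved the same way. Its signals were 110 and 123 in BG -/-, against 25.7 and 33.7 in BG +/-, a log2 difference of 1.54 ± 0.19 (adjusted p = 0.00891). Its cortical signals were 288 and 218 in Ctx -/-, against 172 and 222 in Ctx +/-, and these overlapped. Without BG +/- replicate 2 or either BG -/- array, the BG rise on this probe set missed the threshold (adjusted p up to 0.071).

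On 1419028_at the difference was smaller, with 182 and 196 in BG -/-, against 136 and 100 in BG +/-, and did not pass (0.63 ± 0.16; adjusted p = 0.0564). The arrays of the 2 genotypes did not overlap. On 1424248_at the arrays of a group were far apart, with 94.4 and 33.3 in BG -/-, against 19.6 and 37.0 in BG +/-. That probe set gave no separation of genotypes (log2 difference 0.76, interval -0.33 to 1.86).

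The fifth probe set, 1451280_at, moved in the opposite direction, at low signals. It gave 16.5 and 10.3 in BG -/-, against 41.4 and 32.9 in BG +/-. Both mutant arrays were lower, by -0.86 ± 0.15 on the log2 scale (adjusted p = 0.0225). Its cortical signals of 27.3 and 30.8 in Ctx -/-, against 23.2 and 24.5 in Ctx +/-, did not pass (0.18, interval -0.19 to 0.54). The fall in BG passed under 10 of 16 other settings and was lost without any 1 of the 4 BG arrays. The platform annotation gives 1451280_at and 1424248_at the same sequence record, yet 1424248_at did not fall in BG (0.76, interval -0.33 to 1.86). Which Arpp21 transcripts each probe set detects was not examined here.

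The disagreement among the Arpp21 probe sets was tested directly, a test added after these values had been seen. The change of each further probe set of a gene was set against that of its representing probe set, over 12108 such pairs. In BG the change of 1451280_at was lower than that of 1442121_at by -2.78 ± 0.20 on the log2 scale (limma, adjusted p = 0.0137), in a comparison where 0.190% of pairs passed. For 1419028_at the same difference was -1.29 ± 0.18 and did not pass (adjusted p = 0.0538). The changes of 1440429_at and 1442121_at differed by -0.38 ± 0.20, which did not pass either (adjusted p = 0.455).

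Arpp21 1442121_at was also the only member probe set that passed the test of a difference in genotype effect between regions. The effect in BG exceeded that in Ctx by 1.57 ± 0.21 on the log2 scale (interval 1.06 to 2.08; limma, adjusted p = 0.0462), where 0.574% of all probe sets passed. It is 1 of 17 members, of which 5 had an unadjusted p under 0.05, beside 5569 of all 31526 probe sets. This call was lost with the offset at 1, with no filter, with each array centred on its median (adjusted p = 0.110), with the replicate number as a block (adjusted p = 0.0974) and without any 1 of the 8 arrays, while its size stayed between 1.17 and 1.75. For 1440429_at the difference between regions was 1.21 ± 0.27 (adjusted p = 0.103) and for 1451280_at -1.03 ± 0.22 (adjusted p = 0.0909).

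**Figure D2:**
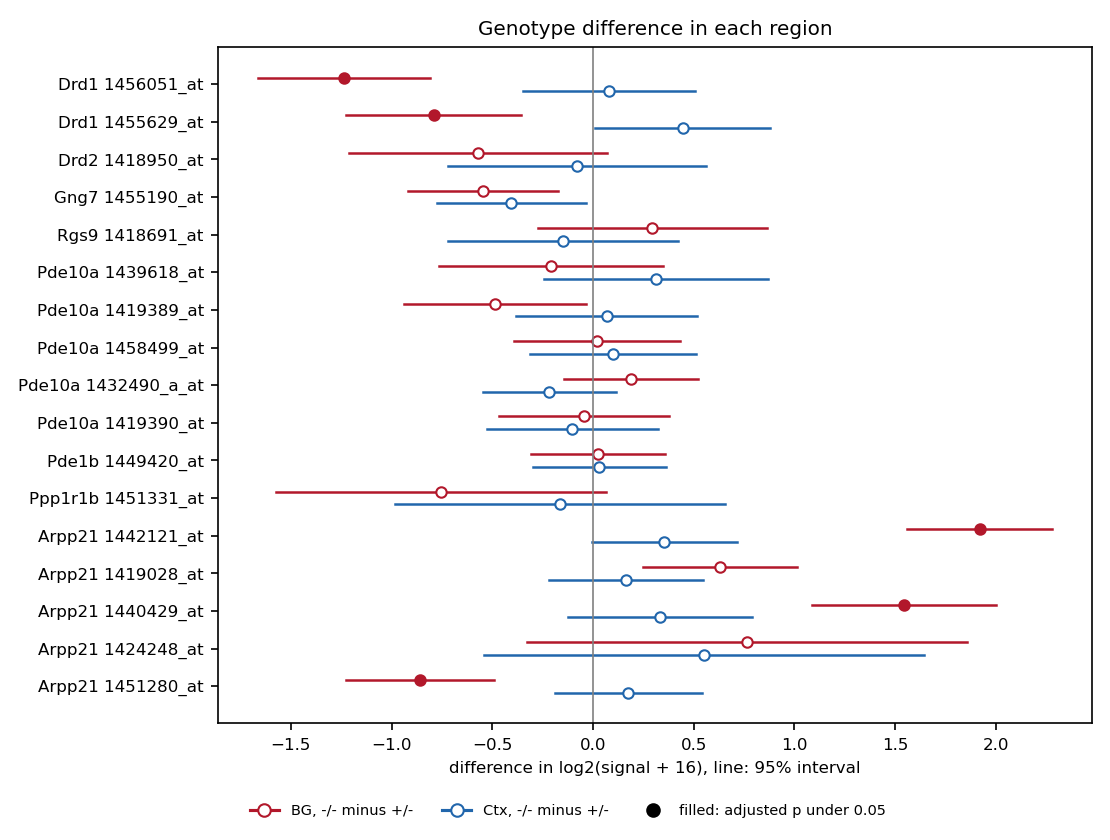
Difference in log2(signal + 16) between -/- and +/- (horizontal axis) for the 17 member probe sets tested (vertical axis), in BG in red and in Ctx in blue, with 95% intervals as lines and filled points where the adjusted p is under 0.05. The 5 filled points are all in BG: Drd1 on both probe sets and Arpp21 1451280_at lie left of 0, Arpp21 1442121_at and 1440429_at right of it.

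Between the receptors and the cyclases stand G protein subunits and their regulators. Gng7, the gamma subunit of the striatal stimulatory G protein, gave 95.1 and 106 in BG -/-, against 154 and 155 in BG +/-. Both mutant arrays were lower and the pairs were tight, yet the log2 difference of -0.55 ± 0.16 did not pass (adjusted p = 0.0758). In cortex Gng7 gave 69.2 and 51.6 in Ctx -/-, against 92.1 and 77.5 in Ctx +/-, a log2 difference of -0.41 (-0.78 to -0.03; adjusted p = 0.478). The order of levels was BG +/-, BG -/-, Ctx +/- and Ctx -/-, with no overlap between neighbours.

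Rgs9, a GTPase-activating protein that ends G protein signalling in striatum and retina, had 1 probe set that passed the filter. On 1418691_at the signals were 102 and 96.9 in BG -/-, against 78.9 and 77.7 in BG +/-, a log2 difference of 0.29 with an interval of -0.28 to 0.86. The cortical arrays spread widely, with 83.7 and 43.8 in Ctx -/-, against 62.2 and 77.8 in Ctx +/-. Of the untested probe sets, 1426033_at gave BG signals of 33.2 and 16 in -/-, against 28 and 31.7 in +/-, and cortical signals of 9.44 and 4.39 in -/-, against 2.35 and 8.38 in +/-. All 4 BG arrays were above all 4 cortical arrays there. The other, 1439635_at, stayed between 1.87 and 17.2 on all arrays.

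Pde10a, the striatum-enriched phosphodiesterase that hydrolyses cyclic AMP and cyclic GMP, passed on none of its 5 probe sets in either genotype comparison. In BG its log2 differences ran between -0.49 and 0.19. The representing probe set, 1439618_at, gave 434 and 439 in BG -/-, against 578 and 446 in BG +/-, and 647 and 525 in Ctx -/-, against 376 and 579 in Ctx +/-. These values show the mutant BG pair below the heterozygous pair and the cortical groups overlapping. On 1419389_at the signals were 115 and 128 in BG -/-, against 169 and 184 in BG +/-, a separation of -0.49 (interval -0.94 to -0.03; adjusted p = 0.153). The differences on 1458499_at (0.02), 1432490_a_at (0.19) and 1419390_at (-0.05) were smaller than 0.2 either way. No Pde10a probe set differed in its change from 1439618_at in any of the 5 comparisons at the threshold.

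Pde1b, a calcium- and calmodulin-dependent phosphodiesterase of striatal neurons, gave close values in both genotypes. They were 277 and 279 in BG -/-, against 265 and 281 in BG +/-, and 409 and 477 in Ctx -/-, against 397 and 469 in Ctx +/-. Genotypes overlapped in both regions. The log2 difference had an interval of -0.31 to 0.36 in BG, and one of -0.30 to 0.36 in Ctx.

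Ppp1r1b encodes the dopamine- and cyclic AMP-regulated phosphoprotein that inhibits a protein phosphatase when phosphorylated by protein kinase A. Its probe set gave 39.2 and 10.4 in BG -/-, against 62.0 and 37.2 in BG +/-, and the groups overlapped. The log2 difference of -0.76 had an interval of -1.58 to 0.07 (adjusted p = 0.209), and the 2 arrays of each BG group were far apart. In cortex the signals were 80.4 and 76.5 in Ctx -/-, against 86.7 and 93.1 in Ctx +/-. The cortical arrays were all above the BG arrays.

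**Figure D3:**
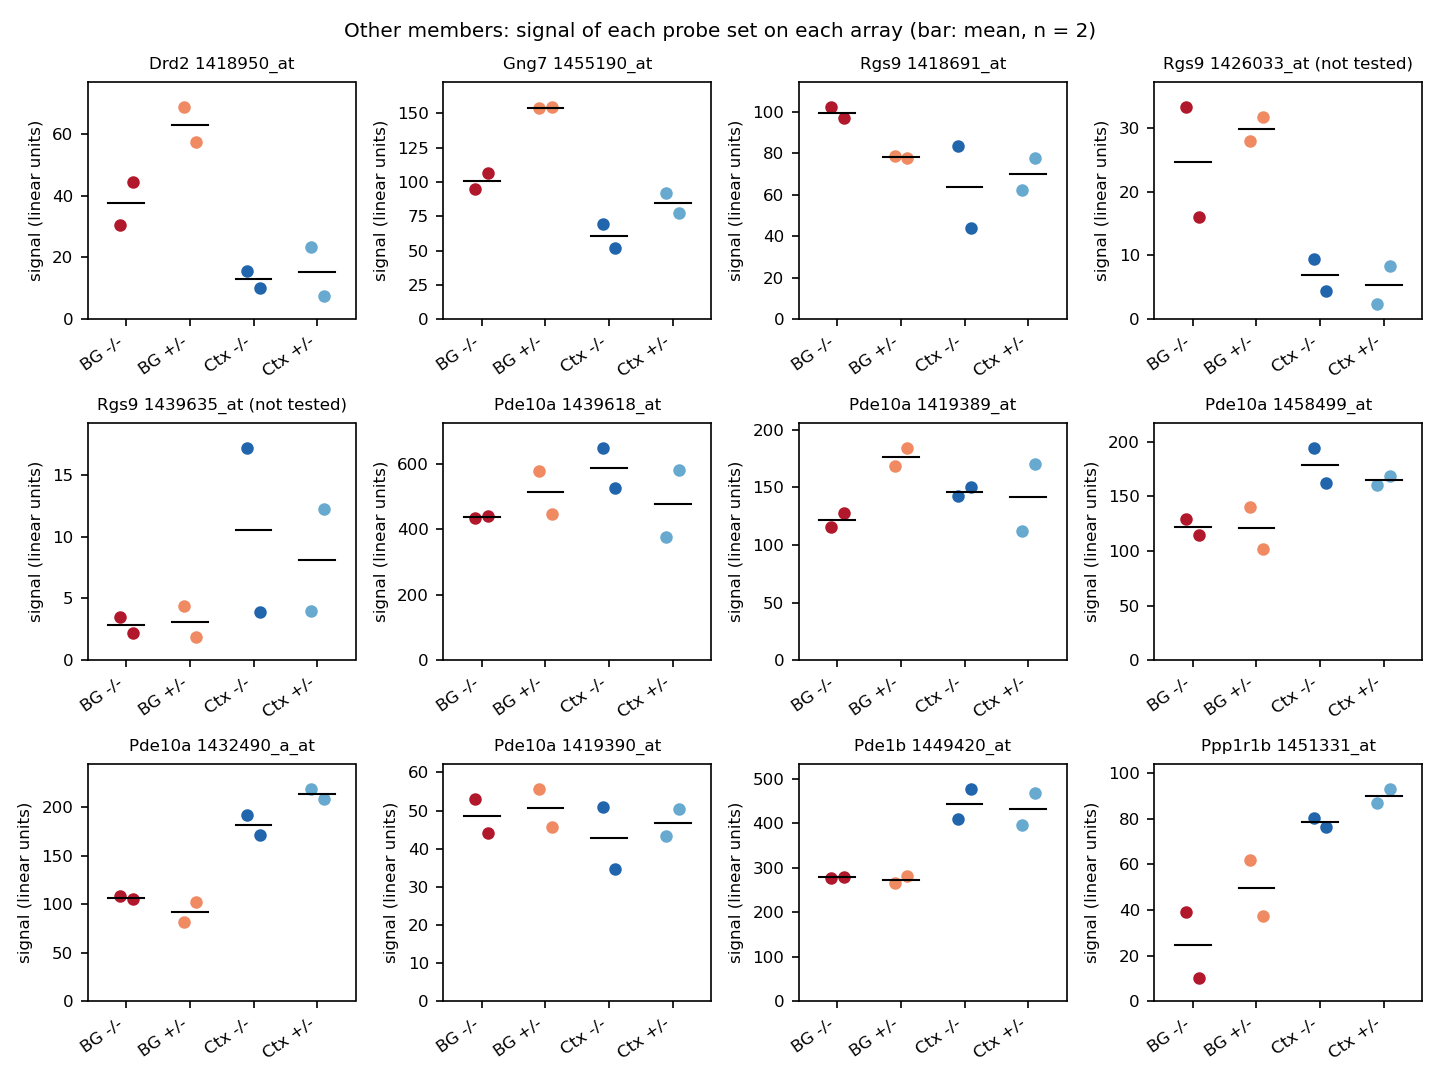
Signal in linear units (vertical axes, each from 0) of the 12 probe sets of Drd2, Gng7, Rgs9, Pde10a, Pde1b and Ppp1r1b on each array, by group, with 1 point per array and a bar at the mean of 2. Drd2, Gng7 and Rgs9 1426033_at are highest in the BG groups, whereas Pde1b, Ppp1r1b and Pde10a 1432490_a_at are highest in the Ctx groups.

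In cortex none of the 17 member probe sets passed in -/- against +/- (limma), and 0.225% of all probe sets did. At an unadjusted p under 0.05 there were 2 members, Drd1 1455629_at and Gng7, and 3050 probe sets over the whole array. The median log2 difference of the members was 0.08, beside -0.01 over all probe sets.

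Comparison of the regions asked which of these genes were higher in basal ganglia than in cortex. In heterozygotes, 2 member probe sets were higher in BG than in Ctx and 5 were lower, where 11.1% and 12.8% of all probe sets were, and the members' median of 0.08 stood beside 0.06 over all. Drd2 was higher by 1.37 ± 0.27 on the log2 scale, a 2.59-fold difference (limma, adjusted p = 0.0137), and Gng7 by 0.76 ± 0.16 (adjusted p = 0.0162). The Drd2 call was lost without BG +/- replicate 2 (adjusted p = 0.0699), and the Gng7 call without either BG +/- array or without Ctx +/- replicate 3.

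The probe sets lower in the heterozygous basal ganglia belonged to Arpp21, Pde10a and Pde1b. Arpp21 1442121_at was lower by -2.75 ± 0.15 on the log2 scale, a 6.71-fold difference (limma, adjusted p = 0.000285), and 1440429_at by -2.22 ± 0.19 (adjusted p = 0.000953). Arpp21 1419028_at was lower by -1.05 ± 0.16, Pde10a 1432490_a_at by -1.09 ± 0.14 and Pde1b by -0.63 ± 0.14. The Pde1b call was lost without either BG +/- array or without Ctx +/- replicate 3 (adjusted p up to 0.0921). Pde10a 1432490_a_at gave 81.8 and 103 in BG +/-, against 219 and 208 in Ctx +/-, and the regions were well apart. Arpp21 1451280_at again went the other way, with a region difference of 0.41 that did not pass (adjusted p = 0.0971). Its difference exceeded that of 1442121_at by 3.16 ± 0.20 (adjusted p = 0.00135) and that of 1419028_at exceeded it by 1.70 ± 0.18 (adjusted p = 0.0083), where 4.01% of pairs passed.

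In homozygotes, 1 member probe set was higher in BG than in Ctx and 8 were lower, where 10.7% and 6.59% of all probe sets were. Some of the 8 are probe sets of the same gene, as named below. This background depends on the scaling: with each array centred on its median, 1937 of all probe sets were higher and 5384 lower, in place of 3361 and 2077. The members' median was -0.58, beside 0.08 over all. Gng7 was the higher one (0.62 ± 0.16; limma, adjusted p = 0.04), a call that held under 5 of 17 other settings. Drd1, which did not pass between heterozygous regions, was lower in BG -/- than in Ctx -/- on both probe sets, by -1.15 ± 0.18 (adjusted p = 0.00834) and -0.90 ± 0.18 (adjusted p = 0.0199). Ppp1r1b was lower by -1.31 ± 0.34 (adjusted p = 0.045), a call that held under 7 of 17 other settings. The others were Arpp21 1442121_at (-1.18), 1440429_at (-1.01) and 1451280_at (-0.62), Pde10a 1432490_a_at (-0.69) and Pde1b (-0.64). The call on Drd1 1456051_at was lost without Ctx -/- replicate 2 (adjusted p = 0.053) and that on Arpp21 1440429_at without that array or either BG -/- array. Those on Drd1 1455629_at, Arpp21 1451280_at, Pde10a and Pde1b were lost without any 1 of the 4 -/- arrays (adjusted p up to 0.171), whereas that on Arpp21 1442121_at held without each array in turn. The region comparisons share their arrays with the genotype comparisons and are not independent of them.

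**Figure D4:**
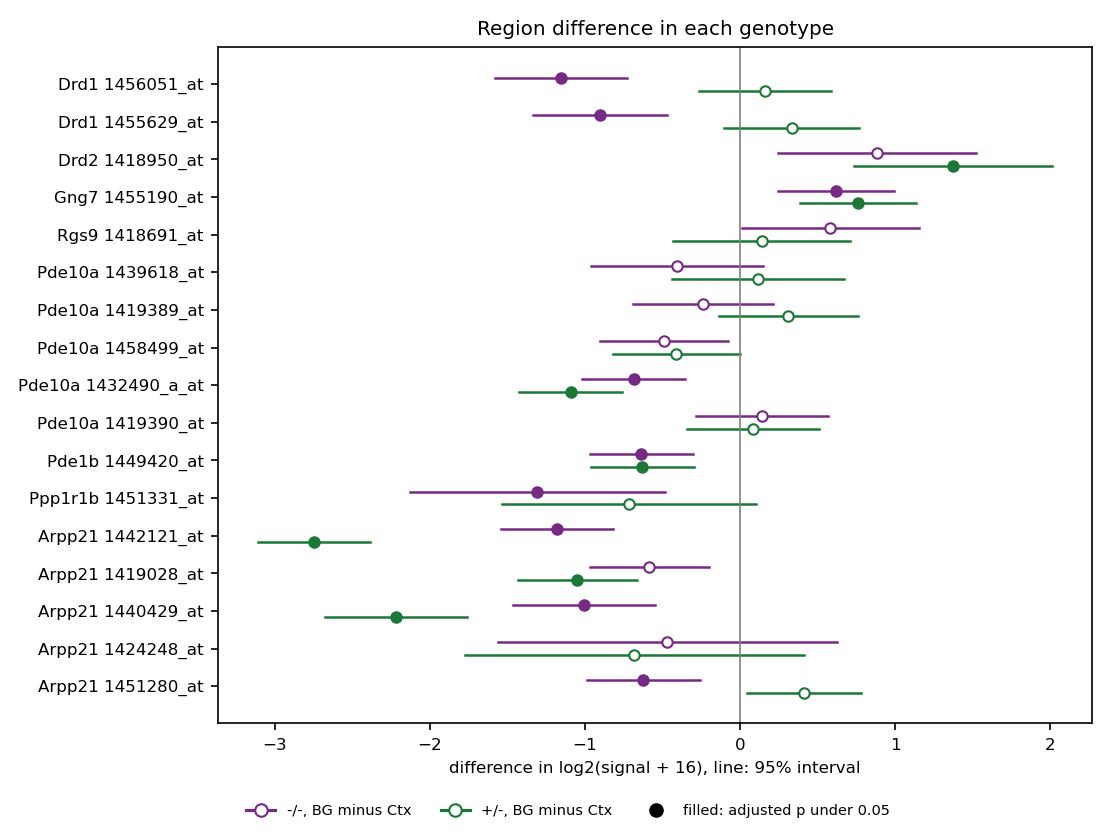
Difference in log2(signal + 16) between BG and Ctx (horizontal axis) for the 17 member probe sets tested (vertical axis), in -/- in purple and in +/- in green, with 95% intervals as lines and filled points where the adjusted p is under 0.05. Drd1 lies left of 0 in -/- and near 0 in +/-, whereas Arpp21 1442121_at and 1440429_at lie farther left in +/- than in -/-.

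Centring each array on its median log2 moved the median difference of all probe sets by -0.10 in the BG genotype comparison, -0.12 between heterozygous regions and -0.28 between homozygous regions. The share of calls that were higher then became 68.5% in place of 77.1% in BG, 31.6% in place of 46.4% between heterozygous regions and 26.5% in place of 61.8% between homozygous regions. For the difference between the 2 genotype effects the median moved by -0.16 and the share became 67.9% in place of 90.1%. Quantile normalization gave a share of 50.3% between homozygous regions.

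The wider pathway was read from a list of 92 genes grouped by role, of which 86 were on the array and 76 were tested by the probe set with the highest mean. In BG, 4 of the 76 rose and 2 fell in -/- against +/-, where 4.76% and 3.05% of all 13627 genes did, and the list's median of -0.08 equalled that of all genes. The 5 further receptors tested did not pass. Among 20 G protein subunits and RGS regulators, Rgs8 rose by 0.83 ± 0.16 on the log2 scale, with 268 and 310 in BG -/-, against 167 and 144 in BG +/- (limma, adjusted p = 0.0255).

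Of 10 cyclases, Gucy1a1 fell. It encodes the alpha subunit of the nitric oxide-activated guanylyl cyclase that makes cyclic GMP, and gave 158 and 202 in BG -/-, against 475 and 529 in BG +/-. The log2 difference was -1.41 ± 0.15 (limma, adjusted p = 0.00667), and its further probe sets 1420533_at (-0.996, adjusted p = 0.0277) and 1420534_at (-1.55, adjusted p = 0.00418) fell too. Gucy1a1 missed the threshold without BG -/- replicate 2 on the representing probe set (adjusted p = 0.0546) and without BG -/- replicate 3 on 1420534_at (adjusted p = 0.0507). On 1420533_at the call was lost with offset 1, with no filter and without any 1 of the 4 BG arrays (adjusted p up to 0.138).

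Of 13 phosphodiesterases, Pde2a, which cyclic GMP stimulates, fell by -0.75 ± 0.12, with 385 and 416 in BG -/-, against 657 and 712 in BG +/- (limma, adjusted p = 0.0166). Its 2 further probe sets did not pass (-0.58 and -0.63). Among 28 kinases, phosphatases and substrates, 3 rose. Arpp19, a relative of the endosulfine phosphatase inhibitors, gave 856 and 823 in BG -/-, against 466 and 518 in BG +/- (0.75 ± 0.13), but its 2 further probe sets, at -0.22 and 0.21, did not pass. Camk4, a calcium/calmodulin-dependent kinase, gave 153 and 156 in BG -/-, against 104 and 76.8 in BG +/- (0.69 ± 0.15). A further Camk4 probe set, 1421941_at, rose as well (0.94 ± 0.19), while 3 others did not pass. Creb1, the transcription factor that cyclic AMP signalling activates, gave 1126 and 1057 in BG -/-, against 680 and 754 in BG +/- (0.60 ± 0.12), and its 4 further probe sets did not pass. Without any 1 of the 4 BG arrays, the calls on Rgs8, Pde2a, Arpp19, Camk4 and Creb1 were lost, as they were with the 4 BG arrays alone. Those on Rgs8, Arpp19, Camk4 and Creb1 were also lost with each array centred on its median. Those on Camk4 and Creb1 were lost with no filter and with the replicate block too, and that on Camk4 with offset 1. The call on Camk4 1421941_at passed under 8 of 16 other settings. It was lost with no filter, with the 4 BG arrays alone and without any 1 of the 4 BG arrays. Without either Ctx -/- array, that call and those on Rgs8, Camk4 and Creb1 were lost too.

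**Figure D5:**
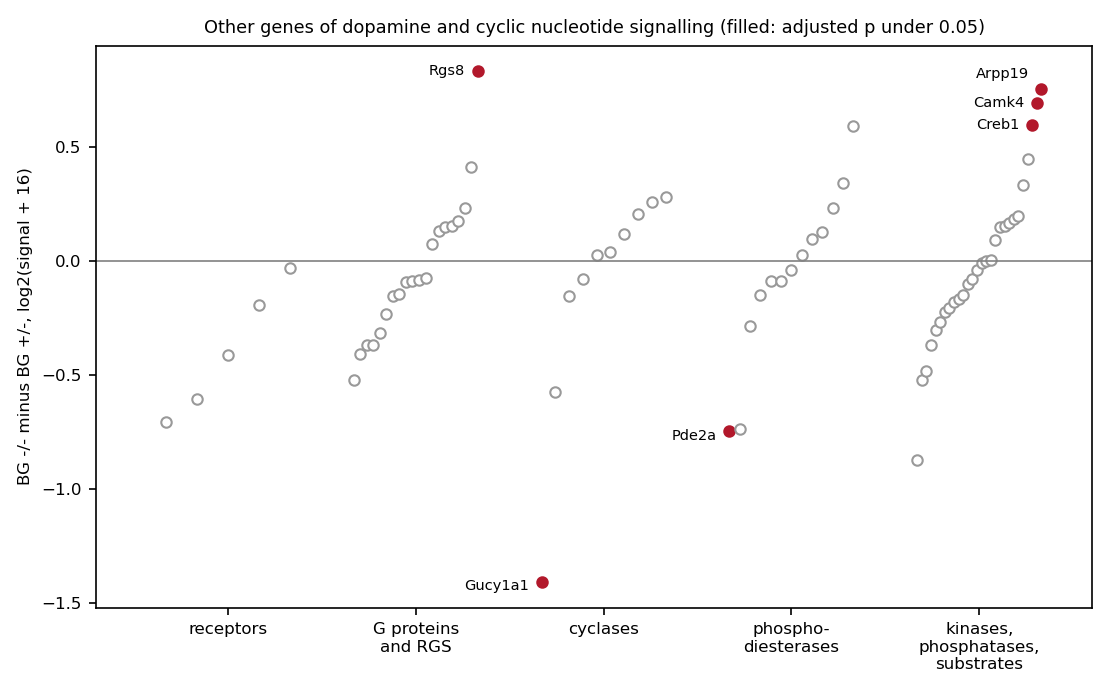
Difference in log2(signal + 16) between BG -/- and BG +/- (vertical axis) for the 76 further genes of the pathway tested, grouped by role (horizontal axis) and sorted within each role, with filled points where the adjusted p is under 0.05. The 6 filled points are Rgs8, Arpp19, Camk4 and Creb1 above 0 and Gucy1a1 and Pde2a below it.

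In cortex none of the 76 genes passed between genotypes (limma), where 0.205% of all genes did. An unadjusted p under 0.05 was found for 8 of the 76, beside 3050 of all 31526 probe sets. None passed in the difference between regions either, where 0.338% of all genes did. There 10 of the 76 had an unadjusted p under 0.05, beside 5569 of all 31526 probe sets. Both of these backgrounds count probe sets, whereas the 76 are genes, each taken by its probe set with the highest mean. Between regions, more of the list was higher in basal ganglia than lower. In heterozygotes 26 of 76 were higher in BG and 6 lower, where 14.0% and 10.7% of all genes were. In homozygotes 22 were higher and 4 lower, where 11.4% and 7.25% of all genes were. G protein subunits and RGS regulators made up 10 of the 26 and 11 of the 22, with none lower in either genotype.

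Markers of striatal projection neurons moved with genotype in BG: 7 of 14 tested fell and none rose, where 3.05% of all genes fell and 4.76% rose. They were Foxp1, Rarb, Ebf1, Rxrg, Bcl11b, Six3 and Penk, and the list's summed signal was 8589 to 9008 in BG -/-, against 13692 to 14061 in BG +/-. Of 9 cortical glutamatergic markers tested, 0 rose and 2 fell, Fezf2 and Neurog2, and the list's median log2 difference was -0.14. The summed signal of the list was 2142 to 2152 in BG -/-, against 1982 to 2005 in BG +/-. That sum leans on its brightest gene in BG, Neurod6, with 775 and 844 in BG -/-, against 493 and 592 in BG +/-. Of 5 markers of neighbouring brain, Otp and Lhx9 rose, with a summed signal of 822 to 899 in BG -/-, against 456 to 520 in BG +/-. Of 4 blood markers tested, Hbb-y fell, with a sum of 3118 to 3265 in BG -/-, against 5951 to 6256 in BG +/-. That sum is mostly Hbb-y itself, with 2908 and 2793 in BG -/-, against 5819 and 5476 in BG +/-. Of 7 genes on the list for microglia and endothelium Rgs5 rose, while Aif1, Csf1r, C1qa, Cldn5, Pecam1 and Cdh5 did not pass. None of the 6 dopamine neuron and adrenal medulla markers or the 4 choroid plexus markers passed in BG. In cortex, where 0.205% of all genes passed, 2 of the 14 genes of the striatal list fell, Gad1 and Gad2, and the other 12 did not pass. Gad1, which makes GABA, gave 10.1 and 20.3 in Ctx -/-, against 350 and 338 in Ctx +/-, and passed under all 17 other settings. Gad2, the other GABA-synthesising enzyme, gave 14.3 and 12.3 in Ctx -/-, against 75.5 and 89.1 in Ctx +/-, and missed the threshold without any 1 of the 4 cortical arrays (adjusted p up to 0.108). Also in cortex, 2 of 4 choroid plexus markers fell, Ttr and Kcne2, with a sum of 19.3 to 73.6 in Ctx -/-, against 11993 to 13899 in Ctx +/-. The sum in Ctx +/- is almost all Ttr, which gave 11634 and 13605 there. The Kcne2 call was lost without either Ctx +/- array or without Ctx -/- replicate 3. Of the sex-linked calls in BG, those on Xist, Eif2s3y and Kdm5d held without each array in turn. That on Uty was lost without either BG -/- array. Of the other marker calls in BG, those on Foxp1 and Rarb held without each array in turn, so that 5 of the 7 striatal calls did not. Those on Bcl11b, Six3, Penk, Otp, Lhx9, Fezf2 and Neurog2 were lost without any 1 BG array (adjusted p up to 0.195). The Ebf1 call was lost without either BG -/- array, and the Rxrg call without either BG +/- array or BG -/- replicate 3. Without either BG -/- array, the calls on Hbb-y and Rgs5 were lost too, and so they were without BG +/- replicate 2 for Hbb-y and BG +/- replicate 3 for Rgs5. The part of these lists, and of sex, in the changes of Drd1, Arpp21 and the pathway genes was not tested.

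Genes with a pattern close to that of a member were ranked by the root mean square difference of their centred log2 values over the 8 arrays, among 13627 genes. For Arpp21 these were Cacna2d1 (0.281), a calcium channel subunit, Serpini1 (0.383), the serpin neuroserpin, and Gm13238 (0.415), where Arpp21 itself varied by 1.204 around its mean. Cacna2d1 gave 322 and 365 in BG -/-, against 93.1 and 132 in BG +/-, and 807 and 733 in Ctx -/-, against 538 and 564 in Ctx +/-. That is the order of levels of Arpp21. For Drd1 they were Mpped2 (0.14), 2410006H16Rik (0.158) and Gtpbp2 (0.202), and Mpped2 gave 286 and 255 in BG -/-, against 539 and 528 in BG +/-. For Pde1b they were Igf1r (0.056), Lmo1 (0.061) and Man2c1 (0.064), and for Gng7 Igfbp4 (0.105), Cldn5 (0.107) and Zswim9 (0.107). Drd2 was closest to Fam170a (0.102), Myo3b (0.115) and 3110070M22Rik (0.137), and Ppp1r1b to Serinc2 (0.191), Rbp4 (0.2) and Rspo1 (0.203). Rgs9 was closest to Kifc3, Samd9l and Slc7a10, and Pde10a to Zc3h18, Ttc27 and D630045J12Rik. The likeness is a description over 8 arrays that share 4 groups.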

How the data were processed

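The authors deposited 1 intensity value per probe set and array, on a linear scale, for 45101 probe sets on 8 arrays; the scanning and summarising software is not given in the sources used here. The mean with 2% of values trimmed at each end was 150.001 on every array, and median signals were 38 to 51.6. Control probe sets, 64 in number, were dropped. Per the platform annotation given here, 34945 of the rest named 1 gene, 932 several and 9160 none. The deposited intensities were put on the scale log2(signal + 16), with no scaling beyond that of the authors. The lowest 30% by mean log2 were left out. R 4.3.3 and limma 3.58.1 fitted 4 group means over all 8 arrays (lmFit, eBayes, two-sided, Benjamini-Hochberg, 4 residual and 2.76 prior degrees of freedom). The method was tested on simulated data. A gene outside the member list is represented by its probe set with the highest mean. All member probe sets are named; of the pathway list, the genes past the threshold in a genotype comparison or in its difference between regions. Further probe sets of these genes were named after their values were seen. Members and lists were chosen with earlier results of these data known. Same-numbered arrays of different groups did not deviate together (correlations -0.03 to 0.02), so the numbers were not used as pairs. The number of arrays limits the precision. Alternatives covered the offset, the filter, the scaling, the variance prior, the replicate block and the arrays used.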

Additional observations from a re-analysis of the deposited data

Results flagged for a closer look

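The genotype effect differed between basal ganglia and cortex, by the test of that difference (limma, adjusted p = 0.0462), on Arpp21 1442121_at. The effect in BG minus that in Ctx was 1.57 on the log2 scale, with both -/- arrays above both +/- arrays in each region.

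A further probe set of Gucy1a1, 1420534_at, gave a difference of the opposite sign, -1.72 ± 0.19 (limma, adjusted p = 0.0334). The representing Gucy1a1 probe set gave -0.85 ± 0.22 (adjusted p = 0.128) and 1420533_at gave -0.49 ± 0.28 (adjusted p = 0.405), and neither passed. In Ctx these had genotype differences of -0.56 and -0.51, against 0.17 on 1420534_at, and none of them passed. On 1420534_at the mean was 40.5 ± 4.72 in BG -/-, against 149 ± 6.30 in BG +/- (SD, n = 2 each). The cortical means were 52.9 ± 8.33 in Ctx -/- and 45.2 ± 1.43 in Ctx +/-. The call held under 5 of 16 other settings and was lost without any 1 of the 8 arrays (adjusted p up to 0.161).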

How the results depend on the processing

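Of 57 single results that passed, 14 passed under every alternative run for them, among them Arpp21 1442121_at in BG, and none changed sign. In BG the 5 members became 3 with the 4 BG arrays alone, and the 6 pathway genes became 12 with offset 64, 13 with the lowest 50% left out, 3 with centred arrays, 16 with an intensity trend and 1 with the 4 BG arrays. For the difference between regions, the 1 member became 0 with offset 1, no filter, centring or the replicate block, 2 with offset 64 and 3 with the lowest 50% left out or a trend, and the 0 pathway genes became 1 with offset 64 and 5 with a trend. The 32 pathway genes between heterozygous regions became 20 with 4 arrays. With the replicate block the other counts were 4 members and 4 pathway genes in BG, 0 and 0 in Ctx, 7 and 29 between heterozygous regions and 7 and 20 between homozygous ones. The cause of these shifts was not tested.

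Leaving out 1 array, the lone array was assumed to vary like the others. The counts were then 1 to 5 members and 0 to 7 pathway genes in BG (1 or 2 members and 0 or 1 genes without any 1 BG array), 0 to 0 in Ctx and in the difference between regions, 4 to 7 and 18 to 28 between heterozygous regions, and 2 to 9 and 12 to 26 between homozygous ones.

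Results that changed sign had not passed. With centring, values were -0.004 for Pde10a 1439618_at (BG +/- against Ctx +/-), -0.081 for 1458499_at and -0.075 for Pde1b in BG, and for 1419390_at -0.105 (difference between regions), -0.036 (+/- regions) and -0.14 (-/- regions). With quantile normalization they were -0.076, -0.018, -0.127, -0.008 and -0.135 for the last 5 in that order. Without 1 array, ranges in Ctx were -0.10 to 0.26 for Drd1 1456051_at, -0.46 to 0.29 for Drd2, -0.52 to 0.22 for Rgs9, -0.20 to 0.34 for Pde10a 1419389_at, -0.02 to 0.22 for 1458499_at, -0.30 to 0.10 for 1419390_at and -0.083 to 0.15 for Pde1b. In BG they were -0.19 to 0.22 for 1458499_at, -0.15 to 0.064 for 1419390_at and -0.015 to 0.064 for Pde1b. For the difference between regions they were -0.31 to 0.025 for Gng7, -0.28 to 0.12 for 1458499_at, -0.14 to 0.26 for 1419390_at, -0.12 to 0.11 for Pde1b and -0.37 to 0.80 for Arpp21 1424248_at. Between heterozygous regions they were -0.014 to 0.34 for Drd1 1456051_at, -0.19 to 0.42 for Pde10a 1439618_at and -0.023 to 0.19 for 1419390_at. Between homozygous regions they were -0.057 to 0.34 for 1419390_at and -1.05 to 0.12 for Arpp21 1424248_at. No detection calls were used, so low signals such as those of Arpp21 1451280_at and Drd1 1455629_at are given as values.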
